A study of Mus musculus with 80 samples.

Results

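The 39 genes described here are skeletal muscle genes: sarcomere proteins, the calcium and energy proteins of muscle fibres, and the myosin heavy chains and troponins that mark fibre types. They were taken from a fixed list of names, and all 39 were among the 14688 genes of the count table. The tissues sampled were bone and cartilage, and the cells that gave the counts of these genes were not identified. The rule used no measured value, but the list was chosen with earlier results of these data known.

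The series holds 80 libraries of female C57BL/6J mice at 21 days of age, from 33 mice. The wild type (WT) was compared with mice lacking the gelatinase MMP2 (MMP2-/-), mice lacking the gelatinase MMP9 (MMP9-/-) and mice lacking both (MMPdKO). Growth plates were cut from cleaned tibiae (7 WT, 6 MMP2-/-, 7 MMP9-/- and 7 MMPdKO libraries). Calvariae were pieces of frontal bone that kept periosteum and suture mesenchyme (7 libraries of each genotype). Cortical bone was the femoral diaphysis, cleaned of muscle, tendon and ligament and flushed of marrow with water, with periosteum and endosteum left on (7 WT, 5 MMP2-/-, 7 MMP9-/- and 6 MMPdKO libraries). Which parts of the 2 genes the knockout alleles lack is not given in the sources used here. Of the 33 mice, 30 gave more than 1 tissue.

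Gene counts came from short 3' tags of polyadenylated RNA (bulk MARS-seq, 30 ng of RNA per library). Totals ran from 114408 to 1921698 counts per library, with a median of 651164. Levels are given as CPM (a gene's count scaled to the total of its library). Since tag yield can differ between genes, levels are compared between libraries and not between genes, apart from the shares of counts described below. Mmp2 ran from 209 to 936 CPM in WT and MMP9-/- libraries and from 4.44 to 48.6 CPM where it was deleted. Mmp9 ran from 622 to 3915 CPM in WT and MMP2-/- libraries and from 74.5 to 1000 CPM where it was deleted, so its ranges overlapped. The tags lie at the 3' end, which may be outside the deleted part.

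Skeletal muscle fibres contract when myosin heavy chains of the thick filament pull on actin of the thin filament, a step that the troponin complex switches on when calcium rises. Fibres differ by the myosin they use: Myh7 marks slow type I fibres, Myh2 fast oxidative type IIA fibres, Myh1 type IIX fibres and Myh4 the fast glycolytic type IIB fibres, while Myh3 and Myh8 are the embryonic and perinatal myosins of developing and regenerating fibres. Myh3, Myh2, Myh1, Myh4 and Myh8 lie in that order within 230 kb of chromosome 11 (67078300 to 67308634, GRCm38, plus strand). They are close in sequence, so the counting may have split or dropped some of their tags.

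The list was set beside genes that define muscle types. Acta1, the skeletal muscle actin, and Ckm, muscle creatine kinase, had counts in all 80 libraries. Both are members, so their counts do not check the label. The heart genes Myh6 and Tnni3 stayed at or under 13.3 CPM and 5.67 CPM in every library, and the median of Myh6 was 0 CPM in calvaria and in cortical bone. Of the 39 members, 38 passed the filter of 15 counts in at least 1 library. The exception was Myh3, whose largest count was 10 and whose level never went above 17.5 CPM.

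The promoters of 3 myosin genes of the cluster are shown because their genes took opposite positions between tissues below: Myh8 and Myh2 were higher in calvaria, and Myh4 was lower in calvaria than in growth plate. Each stretch runs from 250 bases before to 30 bases after the gene start given by RefSeq (GRCm38.p6, plus strand). Capitals mark the E-box CAGCTG read by myogenic factors, the TATA box TATAAA and sites of the MEF2 family, whose motif is given by name. They lie at chr11:67170777-67171056, chr11:67237562-67237841 and chr11:67276874-67277153.
Myh2: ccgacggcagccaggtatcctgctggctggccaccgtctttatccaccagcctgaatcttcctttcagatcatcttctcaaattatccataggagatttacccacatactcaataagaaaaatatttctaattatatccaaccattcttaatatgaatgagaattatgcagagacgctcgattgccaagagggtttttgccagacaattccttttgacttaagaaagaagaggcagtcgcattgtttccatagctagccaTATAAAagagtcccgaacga
Myh4: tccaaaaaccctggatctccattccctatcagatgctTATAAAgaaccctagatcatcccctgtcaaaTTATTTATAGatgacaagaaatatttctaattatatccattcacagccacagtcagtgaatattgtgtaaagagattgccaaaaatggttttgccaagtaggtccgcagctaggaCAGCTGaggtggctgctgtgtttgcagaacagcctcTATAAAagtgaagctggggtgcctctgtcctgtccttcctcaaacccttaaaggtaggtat
Myh8: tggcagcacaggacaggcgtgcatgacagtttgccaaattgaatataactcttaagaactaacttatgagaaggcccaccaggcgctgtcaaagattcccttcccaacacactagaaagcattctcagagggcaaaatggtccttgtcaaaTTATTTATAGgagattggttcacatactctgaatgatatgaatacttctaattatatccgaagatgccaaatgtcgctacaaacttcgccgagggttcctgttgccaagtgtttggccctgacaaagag

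Within the 300 bases searched on both strands, the Myh4 window held CAGCTG 67 bases before the start, a MEF2 site 182 bases before it and TATAAA at 31 and 213 bases before it, with a further TATAAA on the reverse strand inside the MEF2 site. Myh8 held a MEF2 site 99 bases before the start, which overlapped a reverse-strand TATAAA, and no CAGCTG. Myh2 held only TATAAA, 10 bases after the RefSeq start. Of the 31 members with a promoter in the table, 16 (51.6%) held CAGCTG, against 18.4% of 26742 genes. TATAAA was found in 9 members (29.0%), against 15.6% of genes. A MEF2 site was found in 6 members (19.4%; Klhl41, Myh1, Myh4, Myh8, Pvalb and Ttn), against 3.68% of genes. These are matches of letters and not sites shown to be used.

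Muscle transcripts made up a small and very uneven part of the libraries. The 39 genes took from 0.257% to 7.56% of all counts in the 27 growth plate libraries, with a median of 1.58%. In the 28 calvaria libraries the range was 0.443% to 6.30% and the median 2.52%. In the 25 cortical bone libraries it was 0.0506% to 3.05% and the median 0.730%. The tissues overlapped widely, and within each of the 12 groups the highest library held between 1.79 and 40.8 times the share of the lowest.

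Group medians in growth plate were 1.64% (WT), 2.43% (MMP2-/-), 1.12% (MMP9-/-) and 1.41% (MMPdKO). In calvaria they were 1.32%, 3.74%, 2.20% and 2.77% in the same order. In cortical bone they were 0.684%, 0.948%, 0.428% and 0.909%. In these bulk samples fewer muscle cells and less RNA per muscle cell cannot be told apart.

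**Figure D1:**
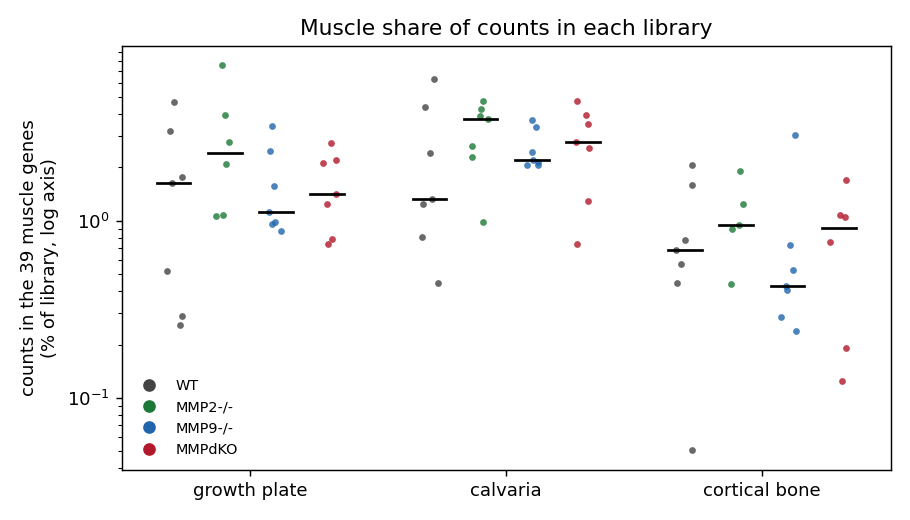
Share of all counts that fell in the 39 muscle genes (percent of the library, log axis), 1 point per library, by tissue and genotype, with black lines at the group medians. Libraries of a single group spread over a wide range, and cortical bone has the lowest median (0.730%), growth plate the middle (1.58%) and calvaria the highest (2.52%).

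Muscle shares in different tissues of the same mouse showed no common direction. Over the 20 mice with calvaria and cortical bone, deviations of the share from the group medians had a Pearson r of -0.40 and a Spearman rho of -0.22. The values were -0.15 and 0.11 over the 24 mice with calvaria and growth plate, and 0.14 and -0.07 over the 20 mice with cortical bone and growth plate. These are descriptions, with no test.

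The members moved together from library to library. After group means were subtracted, each member's log2 CPM was correlated across the 80 libraries with the mean of the other members, and r ran from 0.42 to 0.98 with a median of 0.94 over 38 members. The fast fibre genes Tnnt3, Tnnc2 and Tnni2 and the skeletal muscle actin Acta1 stood at the top, all at 0.98. The lowest were Tnni1 (0.42) and Tnnt1 (0.52), the slow fibre troponins, then Myh8 (0.54), Sgca of the membrane-bound sarcoglycan complex (0.69) and Csrp3, a Z disc protein that senses stretch (0.70). Over 11269 other genes the median was -0.03. The score had an r of -0.07 with the total count and of -0.17 with the haemoglobin share of the library.

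The 12 genes outside the list whose pattern was most like the mean of the members were Pgam2 (r = 0.97, muscle phosphoglycerate mutase), Tpm2, Cox8b, Rtn2, Cox7a1, Tmem38a, Ndrg2, Eef1a2, Nrap, Apobec2, Jsrp1 and Cmya5 (r = 0.93), over 80 libraries with group means removed. Of these, 8 were on a list of 61 other striated muscle genes, and Rtn2, Tmem38a, Ndrg2 and Apobec2 were not. The points share libraries and depth.

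Between calvaria and cortical bone, all members that passed the test were higher in calvaria, in each genotype. A gene was called at an adjusted p under 0.05 (edgeR quasi-likelihood test, adjusted over the 11307 genes tested) and a fold of at least 1.5. In WT, 19 of 38 members were higher in calvaria and 0 lower, where 4.53% of all genes tested were higher and 1.45% lower. In MMP2-/- the counts were 8 and 0 (2.5% and 0.654% of genes). In MMP9-/- they were 20 and 0 (3.29% and 2.18%), and in MMPdKO 22 and 0 (2.83% and 1.68%). The median member differed by 1.63, 1.58, 1.75 and 1.90 on the log2 scale in the 4 genotypes, and the median of all genes by -0.02, -0.03, -0.01 and -0.00.

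These counts varied with the libraries used. The shares of all genes called in these fits, and in such fits below, are not given here. A change in the members thus cannot be told apart from a change in the number of genes called. Where the mouse was added as a block, over mice that gave more than 1 tissue, 6 members were called in WT, and 7 without the block over the same libraries. Without the 5 WT libraries whose name holds a 20 in place of 21, it was 4. Leaving out WT calvaria replicate 7 gave 7, and leaving out WT cortical bone replicate 2 or 6 gave 12. The MMP2-/- count was 5 without calvaria replicate 1 or 4 or cortical bone replicate 1, and 4 without cortical bone replicate 3 or 5. The MMP9-/- count was 33 without cortical bone replicate 6, whose muscle share was the highest of its group, 7 without cortical bone replicate 3, and 9 to 13 without cortical bone replicate 2, 4, 5 or 7 or calvaria replicate 6 or 7. The MMPdKO count was 12 to 14 without calvaria replicate 5 or cortical bone replicate 1, 3 or 4.

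Myh8 showed the widest gap. It ran from 85.6 to 464 CPM in calvaria (median 229) and from 0 to 34.2 CPM in cortical bone (median 9.44). In WT the lowest, median and highest values were 85.6, 227 and 402 CPM in calvaria against 1.85, 7.48 and 34.2 CPM in cortical bone. No calvaria library overlapped a cortical bone library in any genotype, where the share of genes with all calvaria libraries above all cortical bone libraries was 1.07% in WT, 1.64% in MMP2-/-, 0.867% in MMP9-/- and 0.893% in MMPdKO. The log2 difference was 4.58 ± 0.38 (SE) in WT (adjusted p = 6.2e-16), 3.85 ± 0.41 in MMP2-/-, 4.86 ± 0.39 in MMP9-/- and 4.83 ± 0.45 in MMPdKO.

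Myoglobin (Mb), which stores oxygen in oxidative fibres, ran from 342 to 5174 CPM in calvaria (median 2130) and from 16.6 to 614 CPM in cortical bone (median 286). Its log2 difference was 3.25 ± 0.54 in WT (adjusted p = 8.6e-06), 2.75 ± 0.61 in MMP2-/-, 3.18 ± 0.55 in MMP9-/- and 3.45 ± 0.59 in MMPdKO. The groups overlapped only in WT. Csrp3 ran from 24.5 to 243 CPM in calvaria (median 76.5) and from 0 to 43.5 CPM in cortical bone (median 12.3), with log2 differences of 3.36 ± 0.53, 2.14 ± 0.56, 2.81 ± 0.50 and 3.19 ± 0.59 in WT, MMP2-/-, MMP9-/- and MMPdKO. It was called in each genotype, but in MMP2-/- not without calvaria replicate 1 (1.83, adjusted p = 0.062) or cortical bone replicate 3 (1.94, adjusted p = 0.086).

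Of the other members, Atp2a1 (the fast fibre calcium pump of the sarcoplasmic reticulum), Cacng1 (a subunit of the muscle calcium channel), Mybpc1 (the slow form of myosin-binding protein C), Myh1 and Myoz1 (a Z disc protein of fast fibres) were also called in all 4 genotypes. That made 8 members called higher in all 4, against 1.01% of all genes tested. A further 16 were called in some genotypes and 14 in none. Myh2 was called in WT (3.35 ± 0.60), MMP9-/- (2.76 ± 0.59) and MMPdKO (2.54 ± 0.62). Myh1 did not pass in WT with the mouse as a block (2.27, adjusted p = 0.052) or without the 5 libraries whose name holds a 20 (2.10, adjusted p = 0.079). In MMP2-/- Myh2 stood at 1.92 ± 0.64, with an adjusted p of 0.077.

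By role, Z disc, giant and membrane proteins gave 9 of 13 higher in WT, 2 in MMP2-/-, 8 in MMP9-/- and 9 in MMPdKO. Among them Actn2, the Z disc actinin, was called in WT (2.31 ± 0.59), MMP9-/- and MMPdKO, and Neb, the nebulin that sets thin filament length, in the same genotypes (1.87 ± 0.55 in WT). Thin and thick filament genes gave 5, 3, 6 and 7 of 14, calcium and excitation genes 3, 2, 4 and 3 of 6, and energy genes 2, 1, 2 and 3 of 5. Of all genes tested, 4.53%, 2.5%, 3.29% and 2.83% were higher in WT, MMP2-/-, MMP9-/- and MMPdKO. Each of the 13 Z disc, giant and membrane genes had a value above 0 in all 4 genotypes, but the members move together and are not separate results.

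Not every abundant member followed. Acta1 ran from 803 to 10893 CPM in calvaria and from 73.0 to 5349 CPM in cortical bone. Its log2 difference was 1.5 ± 0.57 in WT (adjusted p = 0.106) and 1.85 ± 0.61 in MMPdKO (adjusted p = 0.064), and Ckm stood at 1.31 ± 0.59 in WT (adjusted p = 0.197). Neither was called in any genotype. In WT some genes of fast fibres stood near or below 0. Atp2a1 and Myoz1, also of fast fibres, were called higher in calvaria in every genotype. Myh4 was at -1.58 ± 0.68 in WT (adjusted p = 0.164), -0.66 ± 0.71 in MMP2-/-, -0.72 ± 0.67 in MMP9-/- and -0.14 ± 0.68 in MMPdKO. Pvalb, the calcium buffer of the fastest fibres, was at 0.04 ± 0.61 in WT, Actn3, the fast fibre actinin, at 0.06 ± 0.62, and Mybpc2, the fast form of myosin-binding protein C, at -0.14 ± 0.61. The Pvalb difference was larger than in WT by 0.75, 0.83 and 0.79 in MMP2-/-, MMP9-/- and MMPdKO. For Actn3 it was larger by 0.36, 0.79 and 0.64, and for Mybpc2 by 0.43, 0.64 and 0.72. None of these changes was called.

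**Figure D2:**
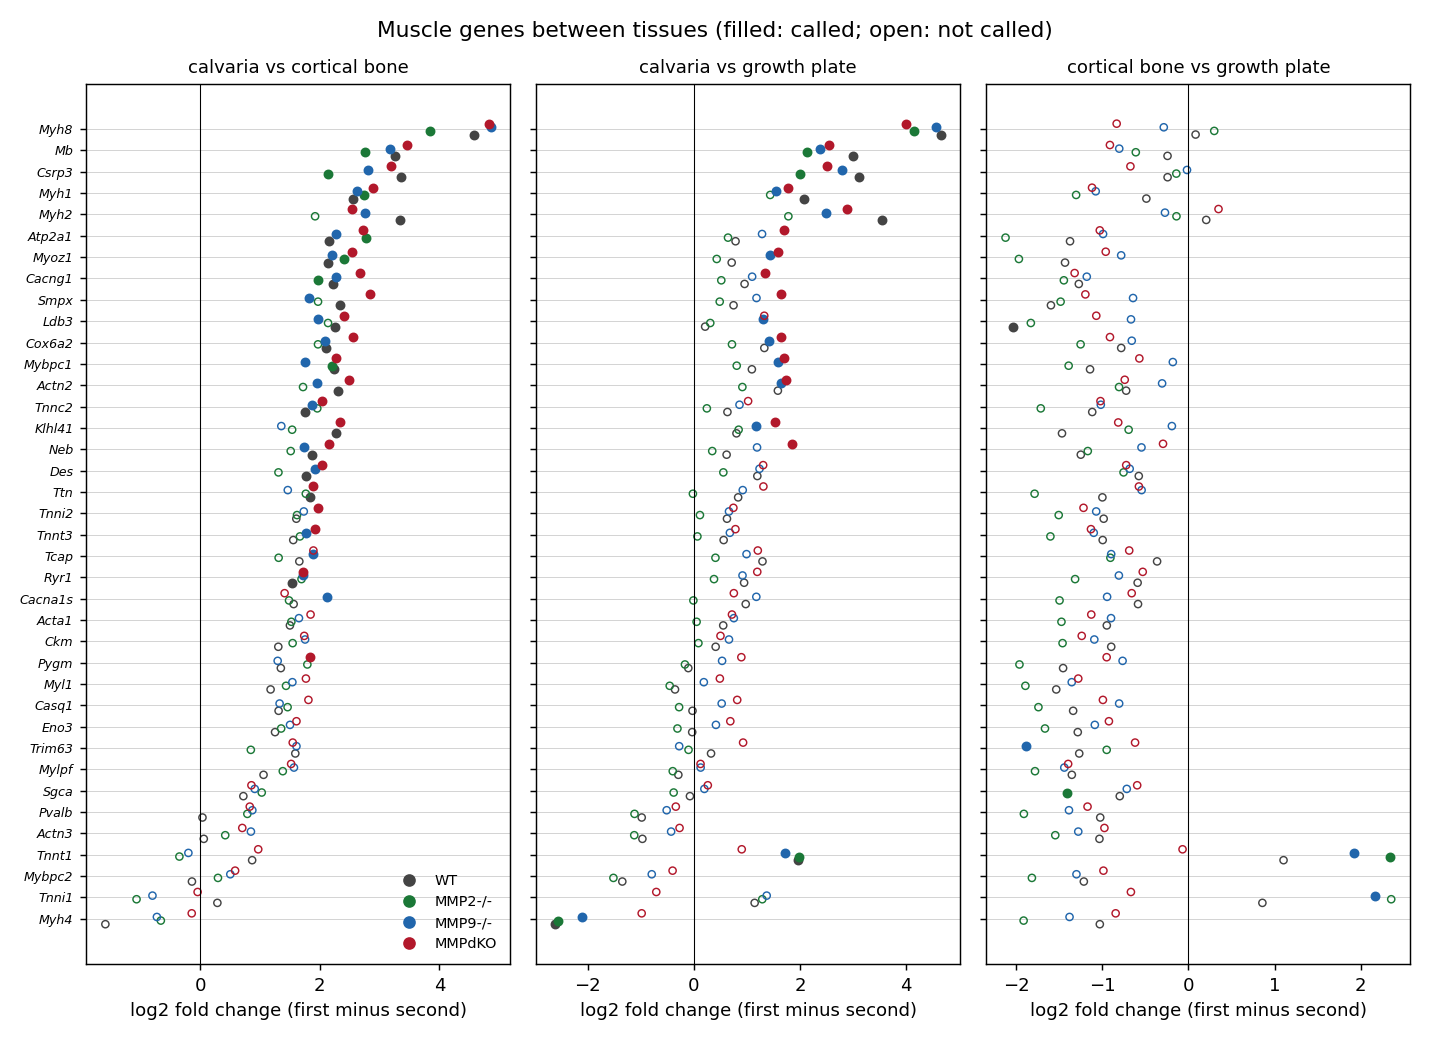
Log2 fold change between tissues (first minus second, horizontal axis) for each of the 38 members tested, coloured by genotype, in 1 panel per pair of tissues, with filled points for called members and open points for the rest. Myh8, Mb, Csrp3 and Myh2 lie far above 0 in both calvaria comparisons, and Myh4 lies below 0 in all panels.

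Calvaria and growth plate differed in fewer members, and most calls were higher in calvaria. Myh4 was the only member called lower, and 1 of 38 is near or below the share of all genes called lower. In WT, 6 members were higher in calvaria and 1 lower (2.27% and 2.55% of genes). In MMP2-/- it was 4 and 1 (1.99% and 3.17%), in MMP9-/- 12 and 1 (11% and 10.9%), and in MMPdKO 14 and 0 (13.3% and 11.6%). The background of called genes was thus larger in MMP9-/- and MMPdKO than in WT. Calvaria libraries are common to these comparisons and to those with cortical bone.

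Members' medians were 0.73, 0.33, 1.05 and 1.11 on the log2 scale in WT, MMP2-/-, MMP9-/- and MMPdKO. With the mouse as a block, 4 members were called in WT and 9 in MMPdKO. In MMP9-/- 8 members were called without growth plate replicate 1, 2 or 3 or calvaria replicate 6 or 7, and in MMPdKO 9 without calvaria replicate 5. Cartilage genes moved with this comparison: the summed level of 13 cartilage genes ran from 5610 to 81628 CPM in growth plate and from 1081 to 4386 CPM in calvaria, and its part in the muscle differences was not tested.

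Myh8, Csrp3 and Mb were higher in calvaria in all 4 genotypes, against 0.708% of genes. Myh8 ran from 1.93 to 35.5 CPM in growth plate (median 10.4), below every calvaria library, and differed by 4.66 ± 0.39 in WT, 4.15 ± 0.38 in MMP2-/-, 4.58 ± 0.35 in MMP9-/- and 3.99 ± 0.38 in MMPdKO on the log2 scale. Csrp3 ran from 0 to 38.8 CPM in growth plate and differed by 3.12 ± 0.52, 2.00 ± 0.50, 2.79 ± 0.47 and 2.52 ± 0.51, with no overlap between the libraries of any genotype. The share of genes with all calvaria libraries above all growth plate libraries was 0.84%, 0.982%, 3.15% and 4.25% in WT, MMP2-/-, MMP9-/- and MMPdKO. Mb ran from 34.7 to 1376 CPM and differed by 3.01 ± 0.54, 2.14 ± 0.55, 2.38 ± 0.52 and 2.54 ± 0.53.

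Myh2 ran from 185 to 2120 CPM in calvaria (median 791) and from 0 to 461 CPM in growth plate (median 83.7). It was called in WT (3.55 ± 0.61), MMP9-/- (2.49 ± 0.57) and MMPdKO (2.89 ± 0.59) and stood at 1.78 ± 0.59 in MMP2-/- (adjusted p = 0.056). Myh4 went the other way. It ran from 114 to 7138 CPM in growth plate (median 1453) and from 37.1 to 1182 CPM in calvaria (median 309), and was lower in calvaria in WT (-2.61 ± 0.70, adjusted p = 0.011), MMP2-/- (-2.57 ± 0.70, adjusted p = 0.014) and MMP9-/- (-2.10 ± 0.68, adjusted p = 0.015). In MMPdKO it stood at -0.98 ± 0.66 (adjusted p = 0.267). With the mouse as a block, Myh4 no longer passed in WT (-2.71, adjusted p = 0.119) and MMP2-/- (-2.46, adjusted p = 0.054), and Myh1 no longer passed in WT (1.95, adjusted p = 0.105). Myh4 also missed the threshold without growth plate replicate 1 in WT (-2.13, adjusted p = 0.055) and without growth plate replicate 6 in MMP2-/- (-2.08, adjusted p = 0.064).

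Tnnt1, the slow troponin T, ran from 21.3 to 170 CPM in calvaria (median 52.0) and from 5.32 to 81.2 CPM in growth plate (median 13.4). It was higher in calvaria in WT (1.97 ± 0.57, adjusted p = 0.025), MMP2-/- (1.99 ± 0.56) and MMP9-/- (1.73 ± 0.52). The WT call did not pass without growth plate replicate 1, 4 or 6 or calvaria replicate 1 or 7 (adjusted p from 0.051 to 0.086), with the mouse as a block (1.76, adjusted p = 0.074) or without the 5 libraries whose name holds a 20 (1.72, adjusted p = 0.152), nor did the MMP2-/- call without growth plate replicate 3 or calvaria replicate 1 (adjusted p = 0.057 and 0.101). Among the 15 fast fibre members 1, 0, 2 and 3 were higher and 1, 1, 1 and 0 lower in WT, MMP2-/-, MMP9-/- and MMPdKO, with medians of -0.03, -0.28, 0.52 and 0.75. Among the 6 slow or mixed members 3, 2, 4 and 4 were higher, with medians of 1.56, 1.54, 1.65 and 1.67 on the log2 scale. Of all genes tested, 2.27%, 1.99%, 11% and 13.3% were higher in the same order, and 2.55%, 3.17%, 10.9% and 11.6% lower. The fast fibre counts in MMP9-/- and MMPdKO are thus small beside a large background.

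**Figure D3:**
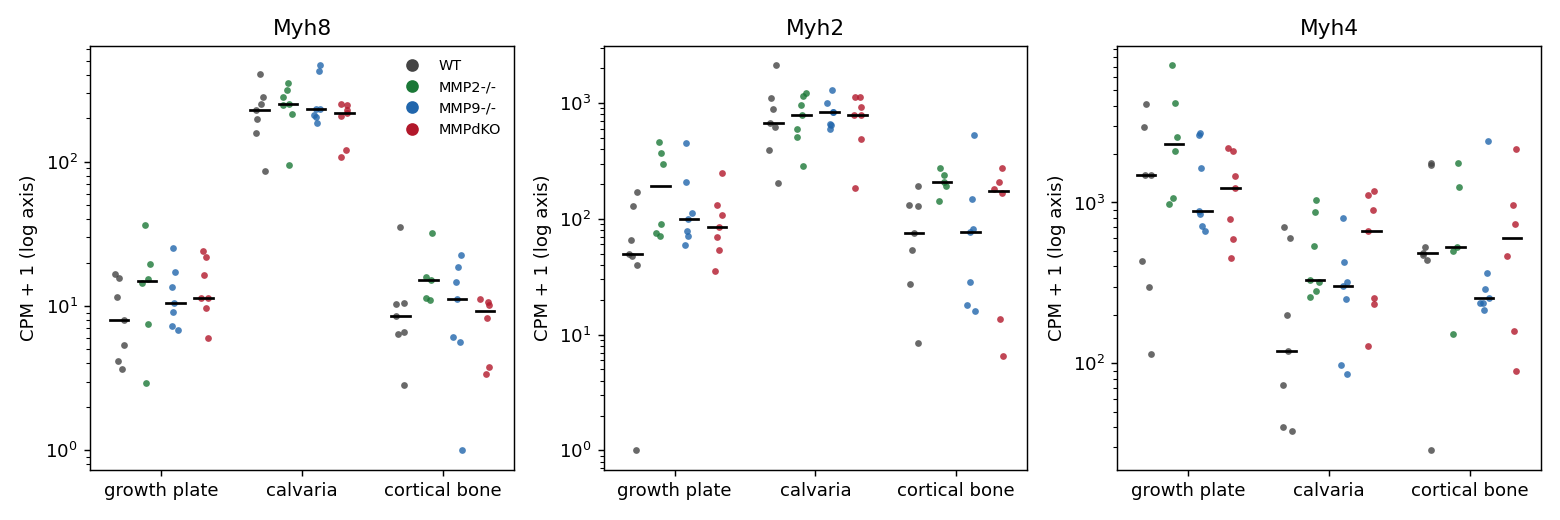
CPM + 1 of Myh8, Myh2 and Myh4 (log axis) in each library, by tissue and genotype, with black lines at the group medians. Every calvaria library lies above every other library for Myh8 (85.6 CPM or more against 35.5 CPM or less), while for Myh4 growth plate has the highest median (1453 CPM).

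Cortical bone and growth plate differed in hardly any member. The counts higher and lower in cortical bone were 0 and 1 in WT (0.619% and 2.1% of genes), 1 and 1 in MMP2-/- (0.893% and 2.02%), 2 and 1 in MMP9-/- (3.94% and 5.08%), and 0 and 0 in MMPdKO (5.23% and 5.68%). At an unadjusted p under 0.05 the MMPdKO count was 3, and DESeq2 called 0. The shares of all genes at that looser threshold, and in the other fits of this paragraph, are not given here. The median member stood at -1.01, -1.47, -0.81 and -0.92 on the log2 scale. Without MMP9-/- cortical bone replicate 6, 20 members were called in MMP9-/-, and with the mouse as a block 0 were called in WT, MMP2-/- and MMP9-/-. Leaving out other libraries gave 0 to 2 calls in WT, 0 to 5 in MMP2-/- and 1 at the least in MMP9-/-.

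The members called lower in cortical bone were Ldb3, a Z disc scaffold, in WT (-2.03 ± 0.59), Sgca in MMP2-/- (-1.41 ± 0.42) and Trim63, the ubiquitin ligase of muscle wasting, in MMP9-/- (-1.89 ± 0.58). The members called higher were both slow fibre troponins. Tnnt1 was higher by 2.34 ± 0.59 in MMP2-/- (adjusted p = 0.014) and by 1.92 ± 0.51 in MMP9-/- (adjusted p = 0.008). Tnni1 was higher by 2.17 ± 0.68 in MMP9-/- (adjusted p = 0.029) and stood at 2.35 ± 0.77 in MMP2-/- (adjusted p = 0.075).

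Each of these slow troponin calls rested on a few libraries. In MMP2-/- cortical bone Tnnt1 was at 299, 25.5, 20.4, 42.0 and 49.5 CPM in replicates 1 to 5, and Tnni1 at 116, 17, 0, 2.48 and 22.7 CPM. Replicate 1 stood far above the other 4, and without it Tnnt1 stood at 0.94 (adjusted p = 0.480). In MMP9-/- cortical bone Tnnt1 ran from 6.85 to 266 CPM (median 35.0), and without replicate 6 it stood at 0.92 (adjusted p = 0.325) and Tnni1 at 1.51 (adjusted p = 0.229). Tnni1 in MMP9-/- also missed the threshold without cortical bone replicate 2 (1.90, adjusted p = 0.086) and without growth plate replicate 2 or 6 (adjusted p = 0.051 each). With the mouse as a block, Tnnt1 stood at 1.74 in MMP2-/- (adjusted p = 0.155) and 1.47 in MMP9-/- (adjusted p = 0.125), and Tnni1 at 1.76 in MMP9-/- (adjusted p = 0.171). In growth plate Tnnt1 ran from 8.25 to 32.8 CPM in MMP2-/- and from 10 to 53.9 CPM in MMP9-/-.

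Since most members move closely with the amount of muscle RNA, fibre type was described by ratios within a library. Tnni1, Tnnt1 and Myh8, which are counted in the slow troponin and developmental shares, followed the other members least (r of 0.42, 0.52 and 0.54). The developmental myosin share was Myh3 and Myh8 over the counts of all 5 clustered myosins. The type IIA myosin share was Myh2 over Myh1, Myh2 and Myh4, and the slow troponin share was Tnni1 and Tnnt1 over Tnni1, Tnni2, Tnnt1 and Tnnt3. Groups were compared by exact two-sided permutation tests, with p adjusted over 63 comparisons. Since tag yield can differ between the genes of a ratio, the shares are read across libraries and not as fibre counts. The shares were not free of the muscle amount of a library, as given below.

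The 5 myosins had a different make-up in calvaria. Myh4 took a mean of 75.6% of their counts in growth plate, 64.9% in cortical bone and 15.3% in calvaria. Myh1 took 17%, 19.8% and 41.3% in the same order, Myh2 6.49%, 13.3% and 32.5%, and Myh8 0.769%, 1.56% and 10.7%.

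**Figure D4:**
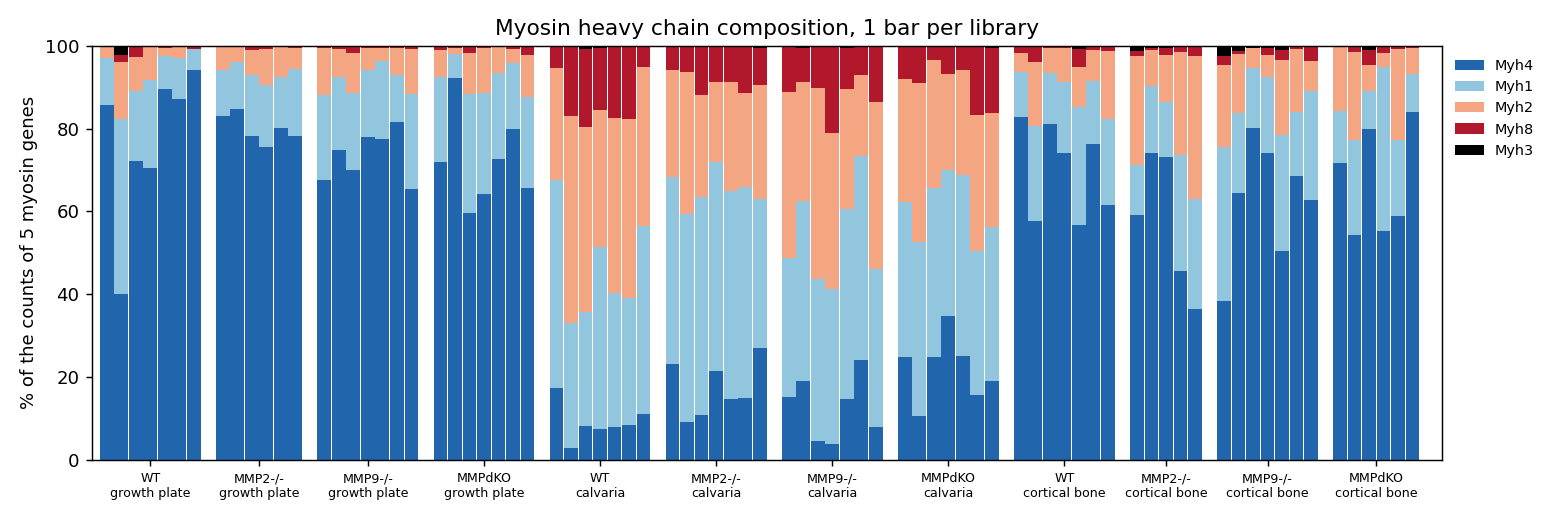
Percent of the counts of the 5 clustered myosin genes that fell in each gene, with 1 bar per library, grouped by tissue and genotype. Myh4 takes most of the counts on average in growth plate (75.6%) and cortical bone (64.9%), while in calvaria Myh1 (41.3%) and Myh2 (32.5%) take more than Myh4 (15.3%).

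The developmental myosin share was 13.9% ± 6.1 (SD, n = 7) in WT calvaria, against 1.95% ± 1.82 in WT cortical bone and 1.22% ± 1.44 in WT growth plate. In MMP2-/- calvaria it was 8.87% ± 2.26, in MMP9-/- 11.7% ± 4.6 and in MMPdKO 9.37% ± 5.13. The other tissues of the knockouts stood between 0.526% and 2.46%. Calvaria differed from both other tissues in each genotype (exact permutation, adjusted p from 0.00408 to 0.00936). All calvaria libraries lay above all growth plate libraries of the same genotype.

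Cortical bone also had a higher developmental share than growth plate in MMP2-/- (1.91% ± 0.65 against 0.526% ± 0.335, exact permutation, adjusted p = 0.0136) and in MMP9-/- (2.46% ± 1.54 against 0.747% ± 0.449, adjusted p = 0.0267). In the mice that gave both tissues, the share was higher in calvaria than in growth plate in 6 of 6 mice of every genotype. Against cortical bone it was higher in 5 of 5 WT, MMP2-/- and MMP9-/- mice and in 4 of 5 MMPdKO mice. Sign flips within so few mice allow a smallest p of 0.03125 for 6 mice and 0.0625 for 5, and no adjusted value passed 0.05.

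The type IIA myosin share was 46.8% ± 11 (SD, n = 7) in WT calvaria, 9.94% ± 4.71 in cortical bone and 5.46% ± 5.04 in growth plate, with no overlap between calvaria and either tissue. In MMP9-/- the shares were 39.5% ± 11.1, 12.4% ± 6.5 and 7.74% ± 3.10, and in MMPdKO 32.9% ± 6.2, 12.6% ± 8.2 and 6.96% ± 3.66, again with no overlap. Calvaria was higher than growth plate in each genotype and higher than cortical bone in these 3 (exact permutation, adjusted p from 0.00408 to 0.00524).

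MMP2-/- stood apart. Its type IIA share was 28.4% ± 4.7 (n = 7) in calvaria and 21.6% ± 11.1 (n = 5) in cortical bone, a difference of 6.76 percentage points that did not pass (exact permutation, adjusted p = 0.318). The 5 cortical bone libraries were at 27.1%, 8.82%, 11.6%, 25.3% and 35.4%, and 3 of them lay within the calvaria range of 21.2% to 36.6%. The value of 35.4% rests on 195 counts. Cortical bone was higher than growth plate (6.03% ± 1.77, adjusted p = 0.0136). In WT the difference between calvaria and cortical bone was 36.9 points, and the MMP2-/- difference was smaller by 30.1 points (exact permutation of genotypes within tissue, p = 0.000149, adjusted p = 0.00134 over 9 such tests, chosen after seeing the data). The test did not pair the tissues by mouse, though 5 WT and 5 MMP2-/- mice gave both. It was not repeated without a library or under other settings. The gap was also smaller than in WT in the other knockouts, and neither passed. The change was -16.6 points in MMPdKO and -9.82 points in MMP9-/- (same test, adjusted p = 0.0674 and 0.335).

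Against WT calvaria, the type IIA share of MMP2-/- calvaria was lower by 18.4 points (exact permutation, adjusted p = 0.00918). The WT libraries ran from 28.8% to 60.1%. MMPdKO calvaria was lower by 13.9 points (adjusted p = 0.0455), a call that was lost in 10 of the 14 fits that left out a library and without the 5 WT libraries whose name holds a 20 (adjusted p = 0.100). In cortical bone MMP2-/- stood 11.7 points above WT (adjusted p = 0.100), and without MMP2-/- replicate 2 by 14.9 points (adjusted p = 0.044).

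Other measures moved with the calvaria result. Within calvaria, after group means were removed, the type IIA share had an r of -0.52 with the log2 muscle share over 28 libraries, the developmental share -0.77 and the slow troponin share -0.67. In growth plate the values were -0.28, -0.58 and -0.58 in the same order over 27 libraries. In cortical bone they were -0.01, -0.53 and -0.27 over 25 libraries. The median muscle share was 3.74% in MMP2-/- calvaria and 1.32% in WT calvaria. The haemoglobin genes took 8.68% ± 1.72 and 13.6% ± 2.1 of counts. The part of these in the lower type IIA share was not tested. Nor was the part of the muscle amount in the share differences between tissues.

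The slow troponin share had its highest group means in cortical bone. It was 4.32% ± 3.47 (SD, n = 7) in WT, 8.10% ± 10.07 (n = 5) in MMP2-/-, 6.95% ± 5.96 (n = 7) in MMP9-/- and 3.79% ± 2.01 (n = 6) in MMPdKO. In growth plate it was 1.66% ± 1.74, 0.647% ± 0.318, 1.12% ± 0.45 and 1.80% ± 1.69, and in calvaria 2.45% ± 2.20, 1.93% ± 1.36, 2.08% ± 0.67 and 1.52% ± 0.48. Cortical bone was higher than growth plate in MMP2-/- by 7.45 points and in MMP9-/- by 5.83 points (exact permutation, adjusted p = 0.0136 and 0.00524). It was higher than calvaria in MMP9-/- (6.95% against 2.08%, exact permutation, adjusted p = 0.0319). The difference from calvaria was 6.16 points in MMP2-/-, the largest of the 4 genotypes, and did not pass (adjusted p = 0.285). WT and MMPdKO did not pass for either comparison. Leaving out cortical bone replicate 1 brought the difference from growth plate in MMP2-/- to 3.23 points (exact permutation, adjusted p = 0.027), and leaving out cortical bone replicate 2 brought that in MMP9-/- to 3.79 points (adjusted p = 0.009). Without WT growth plate replicate 7 the WT difference from growth plate passed (3.21 points, exact permutation, adjusted p = 0.044). Without MMPdKO growth plate replicate 5 the MMPdKO difference from growth plate passed (2.59 points, adjusted p = 0.038), and without cortical bone replicate 1 or 6 the MMPdKO difference from calvaria passed (adjusted p = 0.038 and 0.022).

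Calvaria lay above growth plate by 1.29 points in MMP2-/- (adjusted p = 0.0337) and by 0.956 points in MMP9-/- (adjusted p = 0.0227). The 5 MMP2-/- cortical bone libraries were at 25.0%, 1.36%, 1.08%, 3.27% and 9.80%. The MMP2-/- difference did not pass in 9 of the 13 fits that left out a library, and the difference of calvaria from cortical bone in MMP9-/- did not pass without calvaria replicate 6 or 7 or cortical bone replicate 2, 3, 5 or 6. With Tnni1 and Tnni2 alone in the share, the calls of calvaria against growth plate, of calvaria against cortical bone and of MMP2-/- cortical bone against growth plate were lost.

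**Figure D5:**
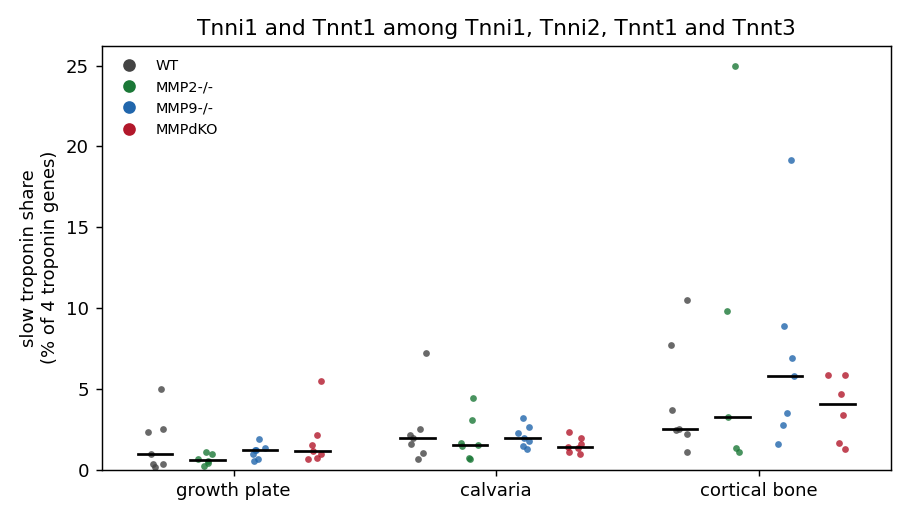
Slow troponin share (Tnni1 and Tnnt1, percent of the counts of 4 troponin genes) in each library, by tissue and genotype, with black lines at the group medians. Most growth plate and calvaria libraries lie low, and cortical bone libraries reach 25.0% in MMP2-/- and 19.2% in MMP9-/-.

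Other slow fibre genes followed the slow troponins. Over the 80 libraries with group means removed, the summed Tnni1 and Tnnt1 level had an r of 0.83 with Myh7, the slow myosin, 0.80 with Myl2 and 0.79 with Myl3, the slow myosin light chains, 0.78 with Tnnc1, the slow troponin C, and 0.64 with Myoz2, a slow fibre Z disc protein. In MMP2-/- cortical bone replicate 1, Myh7 was at 274 CPM and Myl2 at 244 CPM. The calvaria library of the same mouse had Tnni1 at 58.6 CPM and Tnnt1 at 170 CPM, both the third highest of 80. In MMP9-/- cortical bone replicate 6, Myh7 was at 288 CPM, Tnnt1 at 266 CPM and Myl3 at 215 CPM.

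Of 11 slow fibre genes tested outside the members, 4 were higher in cortical bone than in growth plate in MMP9-/-: Myh7 (3.40), Tnnc1 (2.30), Myl3 (2.44) and Myl2 (2.50 on the log2 scale). In that comparison 3.94% of all genes tested were higher. The values of these genes without MMP9-/- cortical bone replicate 6 are not given here. The count was 0 in WT, MMP2-/- and MMPdKO, where 0.619%, 0.893% and 5.23% of all genes were higher. Myh7, Myl2, Myl3 and Tnnc1 are also expressed in heart, while the heart-specific Myh6 and Tnni3 stayed near 0 in these libraries.

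No member was called between a knockout and WT in any tissue. The count was 0 of 38 in each of the 9 comparisons, where few genes were called outside growth plate. The shares of all genes tested that were called for MMP2-/-, MMP9-/- and MMPdKO were 0.0619%, 0.902% and 6.84% in growth plate, 0.0708%, 0.0177% and 0.0177% in calvaria, and 0.0354%, 0.0442% and 0.0442% in cortical bone. DESeq2 also called 0 of 38 in each. At an unadjusted p under 0.05, 8 members were found for MMP2-/- growth plate, 3 for MMP2-/- cortical bone, 2 for MMP9-/- cortical bone and 0 for the other 6. The share of all genes at that looser threshold is not given here, and the members move together. These counts are therefore not read as a result about the members.

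The values with the smallest p were Tnnt1 in MMP2-/- cortical bone (1.62 ± 0.53 on the log2 scale, adjusted p = 0.544) and in MMP9-/- cortical bone (1.38 ± 0.50, adjusted p = 0.308), and Myh2 in MMP2-/- growth plate (1.57 ± 0.60, adjusted p = 0.380). In MMP2-/- growth plate all 38 members had a value above 0, with a median of 0.79. Since the members move together, these are not 38 separate results. The tests of whether the calvaria and cortical bone difference changed with genotype called 0 of 38 members in each knockout, and 0% of all genes. At an unadjusted p under 0.05 the count of members was also 0. Myh2 in MMP2-/- stood at -1.43 ± 0.82 on the log2 scale (adjusted p = 1.00).

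Beside the members, the list of 61 other striated muscle genes gave 28, 10, 25 and 22 of 58 tested higher in calvaria than in cortical bone in WT, MMP2-/-, MMP9-/- and MMPdKO, and 0 lower. Of all genes tested, 4.53%, 2.5%, 3.29% and 2.83% were higher. Against growth plate it gave 6, 3, 13 and 21 higher and 0 lower, where 2.27%, 1.99%, 11% and 13.3% of all genes were higher. Myom3, an M band protein of slow and oxidative fibres, ran from 0 to 59.0 CPM in calvaria (median 28.6), with medians of 4.97 CPM in growth plate and 3.33 CPM in cortical bone. It was higher in WT calvaria than in cortical bone by 3.34 ± 0.57 and than in growth plate by 3.13 ± 0.56.

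Of 7 genes of myogenic regulators and muscle stem cells tested, 0 to 2 were higher and 0 to 2 lower in calvaria in any comparison. Of all genes tested, 1.99% to 13.3% were higher and 0.654% to 11.6% lower in these comparisons. Vgll2, a muscle cofactor, was higher in WT calvaria than in cortical bone (2.60) and Cdh15, the M-cadherin of satellite cells, was lower in WT calvaria than in growth plate (-1.29 on the log2 scale). Mybph and Actc1, which are high in immature fibres, were lower in WT calvaria than in growth plate (-2.82 and -2.88), opposite to Myh8. Actc1 was also lower in WT cortical bone than in growth plate (-4.02), and it was higher in MMPdKO calvaria than in cortical bone (3.21 on the log2 scale).

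Markers of neighbouring cell types moved in part with the muscle genes. Of 9 smooth muscle genes tested, 7 were higher in WT calvaria than in cortical bone and 4 in each knockout, with summed levels of 1120 to 4533 CPM in calvaria, 435 to 2406 CPM in cortical bone and 542 to 4963 CPM in growth plate. For this list and the tendon list below, 4.53%, 2.5%, 3.29% and 2.83% of all genes tested were higher in WT, MMP2-/-, MMP9-/- and MMPdKO. Acta2, the smooth muscle actin, differed by 1.75 in WT on the log2 scale. The sum had an r of 0.93 with the muscle score, and of 0.22 without Des and Tpm2, which striated muscle also uses. Des is itself a member. Of 9 tendon and fascia genes, 3 were higher in WT calvaria than in cortical bone, 0 in MMP2-/- and 1 each in MMP9-/- and MMPdKO, and Tnmd, the tendon membrane protein tenomodulin, was higher by 1.78 in WT. Tendon sums ran from 598 to 1614 CPM in calvaria, 328 to 1436 CPM in cortical bone and 753 to 6472 CPM in growth plate, and had an r of 0.26 with the muscle score. Their part in the muscle differences was not tested.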

How the data were processed

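RNA of growth plate, calvaria and cortical bone of 21 days old female mice was sequenced by bulk MARS-seq, which reads 3' tags. The authors demultiplexed with bcl2fastq 2.20.0.422, trimmed with cutadapt, aligned with STAR 2.7.3a to GRCm38 and counted with htseq-count. The deposited counts are whole numbers per gene, not normalized. Whether unique molecular identifiers were collapsed, and the filter behind the 14688 genes, are not given in the sources used here. The deposited normalized table (DESeq2 1.26.0) was not used.

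Groups came from the labels. Gene symbols were matched for 14678 of 14688 identifiers. The 11307 genes that reached 15 counts in any library were tested with edgeR 4.0.16 (quasi-likelihood test, TMM normalisation, R 4.3.3) in a fit over all 80 libraries and 12 groups, with Benjamini-Hochberg adjustment within each comparison. Calls needed an adjusted p under 0.05 and a fold of at least 1.5. Log2 CPM used a prior count of 2. The alternatives were a fit of the compared groups alone, DESeq2 1.42.0, other filters, replicate blocks, and fits without each library and without the 5 WT libraries whose name holds a 20. Shares of myosin and troponin counts needed at least 20 counts and were compared by exact two-sided permutation tests (scipy 1.17.1) over 63 comparisons. The test of differences between genotypes in these shares, and the shares without the libraries named 20, were chosen after seeing the data. Scripts were tested on simulated counts.

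The members and lists were chosen with earlier results of these data known. Members named with values by group are Acta1, Ckm, the fibre type members and up to 6 members with the smallest adjusted p per comparison and direction. Up to 4 genes of each other list were named by the same measure, and the 12 genes most correlated with the members. Other named genes were chosen after their values were seen. Promoters from RefSeq (GRCm38.p6) were matched for 31 of 39 members, over 300 bases. Depth ranged from 114408 to 1921698 counts, which limits genes of low count. Nothing in the labels says whether replicates of a group were handled apart after dissection, so p-values measure the spread between these libraries.

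The names tie 77 libraries to 30 mice with more than 1 tissue. Profiles of the same mouse, with group means removed, had a mean r of 0.0165 over 64 pairs, against -0.0028 between other mice, and the block by mouse is given beside results whose call it changes.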

Additional observations from a re-analysis of the deposited data

Results flagged for a closer look

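A library was listed where it stood apart from the others of its group by Dixon's test, over 48 groups of values, and chance lists about 1 in 20 groups. The muscle share of MMP9-/- cortical bone replicate 6 was 3.05% of counts, with the next library at 0.730%. The slow troponin share was 5.47% in MMPdKO growth plate replicate 5 (next 2.13%, 1372 counts behind it), 7.22% in WT calvaria replicate 3 (next 2.54%, 1025 counts) and 19.2% in MMP9-/- cortical bone replicate 2 (next 8.89%, 537 counts). The developmental myosin share was 1.73% in MMP9-/- growth plate replicate 3 (next 0.766%, 1390 counts) and 4.55% in MMPdKO cortical bone replicate 3 (next 1.72%, 110 counts, so 5 counts of Myh8).

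The type IIA myosin share of calvaria minus that of cortical bone was 6.76 percentage points in MMP2-/- and 36.9 in WT, and the tested difference between these was -30.1 points (exact permutation, adjusted p = 0.00134 over 9 tests). The MMPdKO difference from WT was -16.6 points and did not pass (exact permutation, adjusted p = 0.0674). These tests did not pair the tissues by mouse and were not repeated without a library or under other settings.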

How the results depend on the processing

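No difference that passed the test and was run again changed direction. Of the share differences that did not pass, 13 changed sign under some setting, as given at the end. The number of members called moved by over 1.5 times under these alternatives. The shares of all genes called under each alternative, or without each library, are not given here. A change in the members thus cannot be told apart from a change in the number of genes called. Fitting only the compared groups gave 12 members for calvaria against cortical bone in WT and 29 in MMP2-/-, 25 for calvaria against growth plate in MMP9-/-, and 0 for cortical bone against growth plate in WT and in MMP2-/-. Without the 5 WT libraries whose name holds a 20, the WT counts were 4 (calvaria against cortical bone) and 0 (cortical bone against growth plate). With the replicate block by title number, cortical bone against growth plate gave 0 in WT and 1 in MMP2-/-. With the replicate block by mouse, calvaria against cortical bone gave 6 in WT, calvaria against growth plate 4 in WT and 9 in MMPdKO, and cortical bone against growth plate 0 in WT, MMP2-/- and MMP9-/-. The same libraries without the block gave 7 and 0 for calvaria and for growth plate against cortical bone in WT. DESeq2 gave 0 for cortical bone against growth plate in WT. The cause was not tested, beside the smaller number of libraries where some were left out.

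Leaving out each library in turn gave 7 to 26 members for calvaria against cortical bone in WT, 4 to 12 in MMP2-/-, 7 to 33 in MMP9-/- and 12 to 25 in MMPdKO. For calvaria against growth plate it gave 8 to 18 in MMP9-/- and 9 to 18 in MMPdKO, and for cortical bone against growth plate 0 to 2 in WT, 0 to 5 in MMP2-/- and 1 to 20 in MMP9-/-. Between genotypes 0 members were called under every alternative run.

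With Tnni1 over Tnni1 and Tnni2, 4 slow troponin differences no longer passed: -3.45 points (calvaria against cortical bone, MMP9-/-), 0.432 and 0.313 (calvaria against growth plate, MMP2-/- and MMP9-/-) and 4.48 (cortical bone against growth plate, MMP2-/-). Without the libraries named 20, the type IIA difference of MMPdKO from WT calvaria was -14 points.

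As a replicate block by mouse, sign flips over 4 to 6 mice could not reach an adjusted p under 0.05, which says nothing about stability. The mean differences were -5.44 (calvaria against cortical bone, MMP9-/-), 1.37 and 0.697 (calvaria against growth plate, MMP2-/- and MMP9-/-) and 8.58 and 6.29 points (cortical bone against growth plate, MMP2-/- and MMP9-/-) for the slow troponin share. For the developmental share they were 12.8, 7.50, 9.27 and 6.61 points (calvaria against cortical bone in WT, MMP2-/-, MMP9-/- and MMPdKO), 14, 7.93, 11.1 and 8.68 points (calvaria against growth plate) and 1.40 and 1.26 points (cortical bone against growth plate, MMP2-/- and MMP9-/-). For the type IIA share they were 37.6, 25.4 and 16.7 points (calvaria against cortical bone in WT, MMP9-/- and MMPdKO), 41.9, 22.8, 32.2 and 26.6 points (calvaria against growth plate) and 14.4 points (cortical bone against growth plate, MMP2-/-).

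Leaving out 1 library, the type IIA difference ran from 8.25 to 14.9 points for MMP2-/- against WT cortical bone and from -16.9 to -11.7 for MMPdKO against WT calvaria, and the developmental difference from -6.52 to -4.11 for MMP2-/- against WT calvaria. The slow troponin difference ran from -5.77 to -2.83 and from -2.77 to -1.86 for calvaria against cortical bone in MMP9-/- and MMPdKO, from 0.871 to 1.5 for calvaria against growth plate in MMP2-/-, and from 1.62 to 3.21 and 1.57 to 2.59 for cortical bone against growth plate in WT and MMPdKO. Of the named members, 16 of 414 values under other settings and 24 of 623 without a library no longer passed.

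For cortical bone against growth plate without 1 library, the slow troponin difference ran from 3.23 to 9.21 points in MMP2-/- and from 3.79 to 6.72 in MMP9-/-, and passed in each fit. The 13 differences that changed sign missed the threshold in the full data. With Tnnt1 over Tnnt1 and Tnnt3, calvaria against growth plate in MMPdKO was 0.0733 points and MMPdKO against WT growth plate -0.0354. Without the libraries named 20, the slow troponin difference of MMP9-/- from WT growth plate was 0.00942 points and the type IIA difference of MMP2-/- from WT growth plate -0.347. Without 1 library, slow troponin differences from WT ran from -0.936 to 0.275 (MMP2-/- calvaria), -0.674 to 0.418 (MMP9-/- calvaria), -0.439 to 5.54 (MMP2-/- cortical bone, the lowest without its replicate 1), -1.07 to 0.502 (MMPdKO cortical bone), -0.792 to 0.00942 (MMP9-/- growth plate) and -0.470 to 0.691 (MMPdKO growth plate), and for calvaria against growth plate from -0.00347 to 1.34 (WT) and -0.479 to 0.326 (MMPdKO). Developmental differences from WT ran from -0.288 to 0.495 (MMP2-/- cortical bone), -1.04 to 0.0945 (MMPdKO cortical bone) and -0.381 to 0.260 (MMPdKO growth plate), and from -0.140 to 0.733 for cortical bone against growth plate in MMPdKO. The type IIA difference of MMP2-/- from WT growth plate ran from -0.347 to 2.05.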
